A study of Mus musculus with 17 samples.

Results

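The genes described here are 10 genes of cytotoxic lymphocytes and natural killer (NK) cells: Gzma, Gzmb, Gzmk, Prf1, Nkg7, Ncr1, Klrd1, Klrk1, Eomes and Ifng. They were picked by symbol, as genes of known function, out of 43629 genes in a table of read counts from mouse ovarian tumours. These genes and all gene lists below were chosen with earlier results of these data known. All 10 were found, each at 1 identifier, and all 10 passed the filter on low counts that left 22671 genes for testing. Cytotoxic T cells and NK cells kill by releasing granules onto a target cell. Perforin opens a path through the membrane, and granzymes, a family of serine proteases, enter and cut proteins inside. NK receptors such as NKp46 and NKG2D read ligands on the target, and interferon gamma is the cytokine that these cells secrete. The lining of the healthy gut holds many resident T cells that carry granzymes.

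The libraries were made from total RNA of ID8, a mouse cancer line that its label derives from the ovarian surface, and of the growths it forms in mice. The data hold 3 tumours on the intestine, labelled as spread from the ovary, 2 subcutaneous tumours (numbered 2 and 3), 3 libraries of the second ascites tap, 3 of the first tap and 3 orthotopic tumours, for which cells were placed in the bursa of the ovary. Single libraries came from healthy intestine, from healthy ovary and from the cultured line, which was grown in medium with serum and left untreated. The labels give C57BL6 for the healthy tissues and no strain, age or sex for the other groups. The subcutaneous tumours are given as lying on the scruff in one field and on the flanks in the protocol. Each tumour is whole tissue with its host cells, and each tap is fluid with its cells, so a lower level can come from fewer cells of a type or from less RNA per cell, which cannot be told apart in bulk samples. No label says that samples of a group came from separate animals, so p-values measure only the spread between these samples. The third tap that the protocol names was not analysed here.

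Libraries held between 12031221 counts (tumour on the intestine 1) and 38902048 counts (orthotopic tumour 1). Genes with a count numbered 33393 in subcutaneous tumour 3, 32846 in first tap 3 and 32775 in second tap 1. The other libraries had from 21157 (cultured line) to 26838 (healthy ovary). The part of this difference in levels near the floor was not tested. Levels are in CPM, a gene's count scaled to a common library total after TMM scaling, which corrects for library composition. The 3 counts taken as a floor for each library were worth 0.0745 to 0.315 CPM. The defining markers of the labelled tissues were present where the labels put them, and those of the ovary also elsewhere. The summed level of 5 intestinal epithelium genes was 2636 to 9053 CPM in tumours on the intestine and 8270 CPM in healthy intestine, against at most 11.4 CPM in any of the other 13 libraries. The summed level of 5 ovary genes was 237 to 419 CPM in orthotopic tumours and 1422 CPM in healthy ovary, but also 104.8 CPM in subcutaneous tumour 3, against 1.997 CPM in subcutaneous tumour 2, and 90.7 CPM in first tap 3. The summed level of 9 T cell genes was 95.3 to 364 CPM in tumours on the intestine, 26.9 and 298 CPM in subcutaneous tumours, 5.25 to 31.0 CPM in the taps and 5.42 to 13.8 CPM in orthotopic tumours. It was 8.13 CPM in the cultured line, which held no count of the T cell gene Cd3e. A sum of that size therefore cannot be read as T cell RNA. Subcutaneous tumours 2 and 3 were unlike each other, with a correlation of log levels across genes of 0.867, against 0.967 to 0.981 between orthotopic tumours. In subcutaneous tumour 2 the summed level of 5 B cell genes was 1418 CPM and that of 5 lymph node genes was 1029 CPM. In subcutaneous tumour 3 these sums were 4.32 and 7.41 CPM.

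Promoters are shown for 4 of the genes whose levels took different courses over the sites: Gzma, Gzmb and Nkg7, which were highest in intestinal samples, and Klrk1, which was highest in a subcutaneous tumour. The sequences are the 250 bases before the gene start in RefSeq, build GRCm38.p6. They lie at chr13:113100982-113101231 on the minus strand for Gzma, chr14:56262335-56262584 on the minus strand for Gzmb, chr7:43436888-43437137 on the plus strand for Nkg7 and chr6:129623865-129624114 on the minus strand for Klrk1. Capitals mark the letters AGGTGT, bound by T-box factors such as Eomes, and TGTGGT, bound by RUNX factors, on either strand (ACACCT and ACCACA on the other).
Gzma: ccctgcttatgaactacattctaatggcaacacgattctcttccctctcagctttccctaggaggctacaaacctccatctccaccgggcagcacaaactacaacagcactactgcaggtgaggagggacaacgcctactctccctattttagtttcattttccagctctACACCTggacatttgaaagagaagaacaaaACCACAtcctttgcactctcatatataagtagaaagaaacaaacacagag
Gzmb: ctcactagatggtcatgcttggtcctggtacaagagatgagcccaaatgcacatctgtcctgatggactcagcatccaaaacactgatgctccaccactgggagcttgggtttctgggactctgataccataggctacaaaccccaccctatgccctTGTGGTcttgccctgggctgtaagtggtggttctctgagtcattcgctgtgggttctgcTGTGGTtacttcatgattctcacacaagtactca
Nkg7: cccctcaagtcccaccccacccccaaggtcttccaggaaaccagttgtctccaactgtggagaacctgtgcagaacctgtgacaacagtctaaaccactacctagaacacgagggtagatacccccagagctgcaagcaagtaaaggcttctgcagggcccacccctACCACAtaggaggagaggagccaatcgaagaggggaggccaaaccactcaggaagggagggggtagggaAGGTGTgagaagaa
Klrk1: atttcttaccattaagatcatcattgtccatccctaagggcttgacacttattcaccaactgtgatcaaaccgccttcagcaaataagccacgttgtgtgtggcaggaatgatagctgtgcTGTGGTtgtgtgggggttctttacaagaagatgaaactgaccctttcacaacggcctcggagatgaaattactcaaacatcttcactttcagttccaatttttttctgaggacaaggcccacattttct
Gzma held 1 T-box and 1 RUNX match, Gzmb held 2 RUNX matches, Nkg7 held 1 of each and Klrk1 held 1 RUNX match. The first bases after the start were found in GENCODE M21 transcripts for Gzma, Nkg7 and Klrk1. They were not found for Gzmb, nor for Gzmk, Prf1 and Eomes, so those windows may not end at a transcript start of that annotation. A promoter was found for 9 of the 10 genes, all but Klrd1, and 7 of these 9 held at least 1 of the motifs. Of 27025 promoters of the same length, 11.99% held the T-box letters, 14.2% the RUNX letters and 24.0% either. Eomes and Ifng held neither in this window. A match describes letters only.

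**Figure D1:**
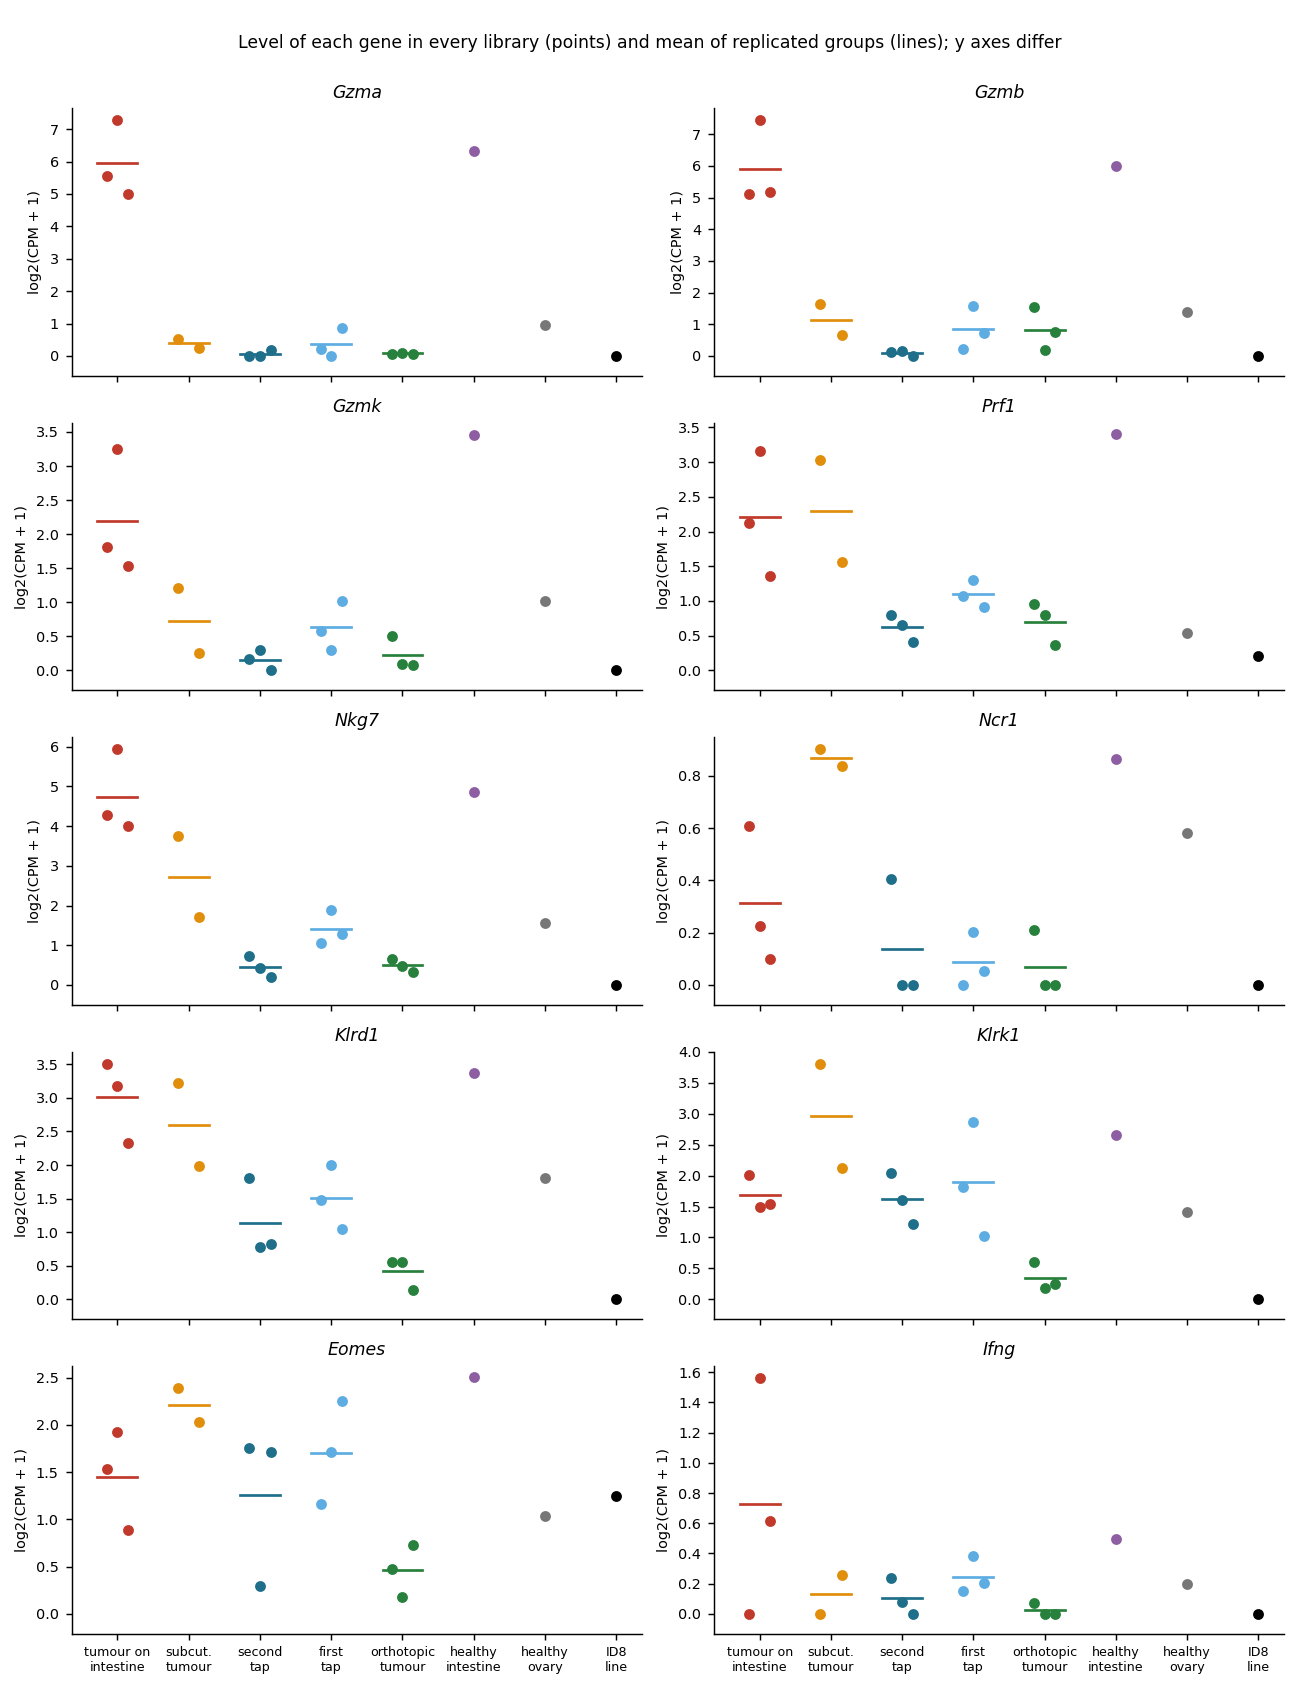
Level of each of the 10 genes on a log2(CPM + 1) axis in every library (points), by group, with a line at the mean of groups with replicates. For Gzma, Gzmb, Gzmk and Nkg7 all 4 intestinal libraries stand above all 13 others, while Klrk1, Eomes and Ncr1 reach intestinal levels in subcutaneous tumours.

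Across the 17 libraries the 10 genes differed in where their RNA was found. For 4 genes, Gzma, Gzmb, Gzmk and Nkg7, the lowest of the 4 intestinal libraries stood above the highest of the other 13. The share of all genes that separate in this way was not computed, so the count of 4 has no background. Of all Gzma counts 98.6% fell in these 4 libraries, and of all Gzmb counts 95.5%. For Klrk1 that share was 19.2%, for Eomes 23.4% and for Ncr1 25.7%. Prf1 and Klrd1 stood between, at 49.8% and 45.8%. Gzma therefore ranged from no count in 4 libraries to 154 CPM, and Klrk1 from no count in 1 library to 13.03 CPM in subcutaneous tumour 2.

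Levels of different genes were compared per kilobase of exon, with lengths from GENCODE M21. In tumours on the intestine Gzma stood highest, at 76.5 ± 66.9 CPM per kilobase (SD, n = 3), followed by Gzmb at 56.1 ± 55.8 and Nkg7 at 34.3 ± 27.6. Klrd1 came next at 5.85 ± 2.52, then Gzmk at 3.10 and Prf1 at 1.66, and the other 4 genes averaged below 1 CPM per kilobase. The order of these first 6 genes was the same within each of the 3 tumours, although the ranges of neighbours across tumours overlapped for every step but that between Nkg7 and Klrd1. In subcutaneous tumours the order on that scale was led by Nkg7 at 8.08 ± 7.93 CPM per kilobase (SD, n = 2) and Klrd1 at 4.39 ± 2.95. In the second tap Klrd1 led at 1.04 ± 0.800 CPM per kilobase (SD, n = 3), and in the first tap Nkg7 at 1.92 ± 0.935 and Klrd1 at 1.52 ± 0.756. In orthotopic tumours Gzmb was highest at 0.642 ± 0.647 CPM per kilobase (SD, n = 3), with Nkg7 at 0.450 ± 0.169. The neighbours named in these other groups overlapped between libraries.

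Granzyme, perforin and receptor genes were higher in tumours on the intestine than in orthotopic tumours. Of the 10 genes 7 rose and none fell at an edgeR adjusted p under 0.05, where 10.4% of all 22671 genes tested rose and 15.5% changed in either direction. The 7 were Gzma, Gzmb, Gzmk, Prf1, Nkg7, Klrd1 and Klrk1. The median log2 fold change of the 10 genes was 4.49, and that of all genes tested was 0.06. Because the genes and lists were chosen with earlier results of these data known, setting their counts beside these shares is a description only. This comparison sets tumours at a second site against tumours at the primary site, and no label links a tumour of one group to one of the other. The intestinal epithelium list rose in 5 of 5 genes, the T cell list in 9 of 9 and the gamma-delta T cell list in 4 of 4, and their part in the changes of the 10 genes was not tested.

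Among the proteases, Gzma encodes a trypsin-like granzyme. It had 45.7, 154 and 31.1 CPM in tumours on the intestine 1, 2 and 3, against 0.0519, 0.0665 and 0.0526 CPM in orthotopic tumours 1, 2 and 3. Each orthotopic library held 2 counts of it, which is under the floor. The log2 fold change was 10.31 ± 1.45 (SE, edgeR adjusted p = 0.00124). It rests on 4943 pooled counts against 6, a ratio of 1435 with an exact 95% interval of 659 to 3913 that covers counting error only. Even counts were in excess in every library, and if counts are not independent of each other, this interval, the others of its kind and the floor are too narrow. Gzmb encodes granzyme B, which cleaves after aspartate and sets off apoptosis in the target. It had 33.6, 173 and 34.9 CPM in tumours on the intestine, against 1.95, 0.133 and 0.684 CPM in orthotopic tumours. The groups did not overlap, and tumour 2 on the intestine stood far above the other two. The log2 fold change of Gzmb was 6.43 ± 1.26 (adjusted p = 0.00666). Gzmk, a further trypsin-like granzyme, had 2.52, 8.53 and 1.89 CPM against 0.415, 0.0665 and 0.0526 CPM, with a log2 fold change of 4.55 ± 1.22 (adjusted p = 0.0276). Prf1, which encodes perforin, had 3.36, 7.94 and 1.57 CPM against 0.934, 0.731 and 0.289 CPM. It changed less than the granzymes in these libraries, with a log2 fold change of 2.71 ± 0.74 (adjusted p = 0.0285). The difference between the genes was not tested.

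Nkg7, which encodes a granule membrane protein that helps granules to be released, had 18.5, 60.4 and 15.2 CPM in tumours on the intestine, against 0.571, 0.399 and 0.263 CPM in orthotopic tumours. Its log2 fold change was 6.24 ± 0.91 (adjusted p = 0.00145). Among the receptors, Klrd1 encodes CD94, the partner chain of the NKG2 receptors that read Qa-1. It had 10.4, 8.06 and 4.02 CPM against 0.467, 0.465 and 0.105 CPM, and rose by 4.42 ± 0.82 (adjusted p = 0.00505). Klrk1 encodes NKG2D, the activating receptor for stress-induced ligands. It had 3.04, 1.82 and 1.92 CPM against 0.519, 0.133 and 0.184 CPM, and rose by 2.98 ± 0.81 (adjusted p = 0.0294). Tumour 2, which was highest for the granzymes, was lowest of the 3 for Klrk1. Ncr1 encodes NKp46, the receptor that marks NK cells and related innate lymphocytes. It had 0.525, 0.170 and 0.0712 CPM in tumours on the intestine, against 0.156 CPM in orthotopic tumour 1 and no count in orthotopic tumours 2 and 3. The groups overlapped and the test was not passed (log2 fold change 2.07 ± 1.81, adjusted p = 0.466). The summed level of 5 NK marker genes was 2.16 to 2.83 CPM in tumours on the intestine, against 0.133 to 0.816 CPM in orthotopic tumours. Of 4 NK markers tested 1 rose, Klrb1c, the NK1.1 antigen, by 2.70 ± 0.79 (adjusted p = 0.0381). Ncr1 is one of the other 3, Klre1 stood at 2.92 ± 1.52 (adjusted p = 0.208) and Klra4 at -1.31 ± 1.53 (adjusted p = 0.596). As 10.4% of all genes tested rose here, 1 of 4 says nothing particular of the NK list. The same sum was highest in the cultured line, at 7.60 CPM, where Klra4 had 285 counts and Ptprc had none.

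Eomes encodes the T-box factor of NK cells and memory CD8 T cells. It had 1.89, 2.80 and 0.854 CPM in tumours on the intestine, against 0.389, 0.133 and 0.658 CPM in orthotopic tumours. The groups did not overlap, but the test was not passed (log2 fold change 2.21 ± 0.86, adjusted p = 0.102). Ifng had no count in tumour 1 on the intestine and 1.95 and 0.534 CPM in tumours 2 and 3, against 0.0519 CPM in orthotopic tumour 1 and no count in the others. The groups overlapped at 0, and the test was not passed (log2 fold change 5.24 ± 1.87, adjusted p = 0.0764). It rests on 61 pooled counts against 2, a ratio of 53.1 with an exact 95% counting interval of 14.1 to 449. With DESeq2, Eomes and Ifng also passed, at adjusted p of 0.0308 and 0.0275, which made 9 of 10 against 26.4% of all genes tested in either direction.

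**Figure D2:**
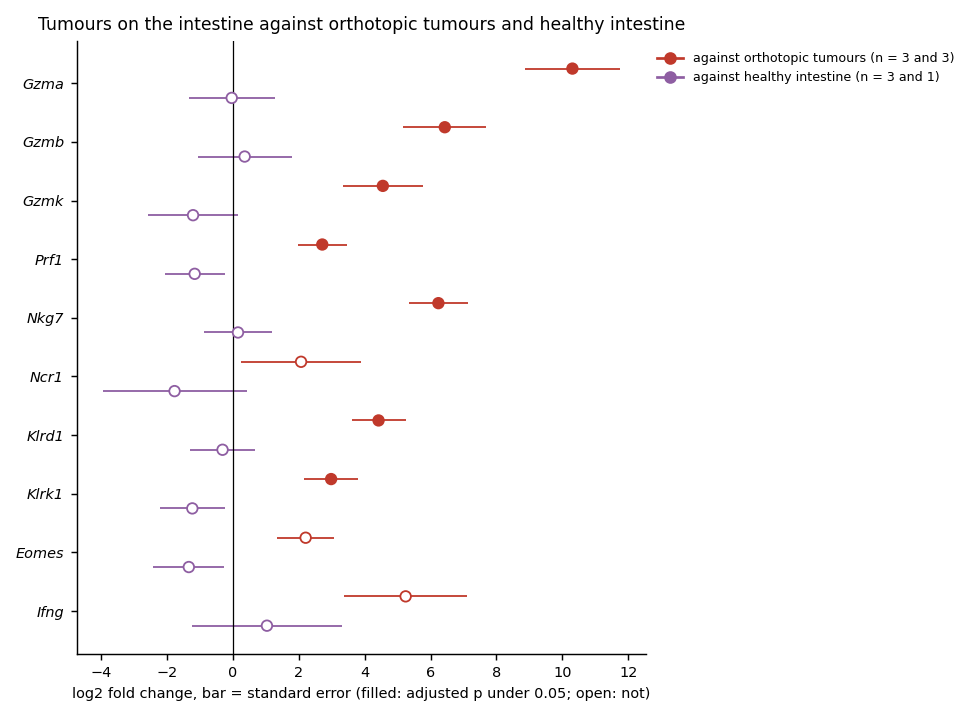
Log2 fold change (x axis) of each gene in tumours on the intestine, against orthotopic tumours (upper point of each pair) and against the healthy intestine library (lower point), with bars of 1 standard error. Filled points passed at an adjusted p under 0.05. All 10 upper points lie right of 0, between 2.07 and 10.31, with 7 filled, and the lower points lie between -1.77 and 1.03, with none filled.

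Leaving out 1 library at a time, 4 genes passed in all 6 fits, namely Gzma, Gzmb, Nkg7 and Klrd1. Their highest adjusted p were 0.0136, 0.0329, 0.0136 and 0.0258 in that order. Gzmk and Klrk1 missed the threshold without tumour 1 or 2 on the intestine and without orthotopic tumour 2 or 3, with adjusted p up to 0.116 for Gzmk and 0.113 for Klrk1. Prf1 passed only without tumour 3 on the intestine, and its adjusted p in the other fits reached 0.155. In both groups the library name of sample 1 starts with S and those of samples 2 and 3 with SM. Among the SM names alone 3 genes passed, which were Gzma, Gzmb and Nkg7, with log2 fold changes of 10.46, 7.88 and 6.77, and of all genes 664 passed, against 3517 with all libraries.

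The other genes of the pathway gave a mixed account in the same comparison, where 10.4% of all genes tested rose. Of 17 other granzyme and killing genes 13 were tested, and 5 rose and none fell, with a median log2 fold change of 0.80. Fasl, the death ligand of T cells, averaged 5.79 CPM in tumours on the intestine and 0.166 CPM in orthotopic tumours (log2 fold change 5.09 ± 0.77, adjusted p = 0.00168). Tnfsf10, the death ligand TRAIL, rose by 5.53 ± 1.17, and Ctsw, a lymphocyte cathepsin, and Cst7, a granule cathepsin inhibitor, rose by 2.33 and 2.92. Of 21 NK receptor and adaptor genes 18 were tested and 5 rose, among them Cd96, a receptor for nectin-like ligands, by 7.17 ± 1.05, Cd226 by 2.81 and Cd244a by 2.98. Klrg1 averaged 0.302 CPM in tumours on the intestine and had no count in orthotopic tumours.

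Of 10 transcription factors 2 rose. Tbx21, which encodes T-bet, the T-box partner of Eomes, averaged 3.24 CPM in tumours on the intestine and 0.0741 CPM in orthotopic tumours (log2 fold change 5.36 ± 0.99, adjusted p = 0.00496). The other was Ikzf3, a lymphocyte zinc finger factor, by 5.32 ± 1.1. Of 17 cytokine and receptor genes 16 were tested and 4 rose, namely Ifngr1 and Ifngr2, the chains of the interferon gamma receptor, by 1.90 and 2.06, the chemokine Ccl5 by 3.98, and Il15, a growth factor of NK and CD8 T cells, by 2.52. Of 10 genes induced by interferon gamma 5 rose, among them Irf1 by 2.97 ± 0.42 (adjusted p = 0.00125), Ido1 by 7.34, Gbp2 by 1.66 and Cxcl11 by 5.78. Of 6 ligand genes of NKG2D or CD94 that were tested 1 rose, H2-T23, which encodes Qa-1, by 3.30 ± 0.64 (adjusted p = 0.00622). With 10.4% of all genes higher, the counts of 2 of 10 transcription factors and 1 of 6 ligand genes are near the background and say nothing particular of these lists.

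Against the lone library of healthy intestine, none of the 10 genes passed in tumours on the intestine. With edgeR 0% of all genes passed, and no member reached an unadjusted p under 0.05. DESeq2 passed 0.198% of all genes and none of the 10. The healthy library has no replicate, is taken to vary as the other groups do, and so gives no check of its own. Gzma had 45.7, 154 and 31.1 CPM in tumours on the intestine and 79.0 CPM in healthy intestine (log2 fold change -0.04 ± 1.3). Gzmb had 33.6, 173 and 34.9 CPM and 62.9 CPM (0.36 ± 1.42), and Nkg7 18.5, 60.4 and 15.2 CPM and 28.2 CPM (0.15 ± 1.02). For all 3 genes healthy intestine stood inside the range of the tumours. Of the 10 genes 7 had a negative log2 fold change, with a median of -0.74 against 0.02 for all genes. Prf1 stood at -1.16 ± 0.91, Gzmk at -1.21 ± 1.38, Klrk1 at -1.23 ± 0.99 and Eomes at -1.34 ± 1.08, and for each of these the healthy library was above all 3 tumours. The same held for Ncr1, at -1.77 ± 2.19, while Klrd1 at -0.31 ± 0.98 and Ifng at 1.03 ± 2.27 overlapped. For how many of all genes the healthy library lay outside the tumours was not computed, so this says nothing particular of these genes. The standard errors span changes of more than 1 on the log2 scale, so the test does not show equal levels.

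The granzymes were also set against lymphocyte and tissue genes of the same library. The ratio of Gzma to Cd8a, a chain of the CD8 coreceptor, was 0.791, 1.06 and 0.893 in the tumours and 0.752 in healthy intestine, on the CPM scale with no correction for length. The ratio of Klrk1 to Cd8a was 0.0527, 0.0125 and 0.0552 in the tumours and 0.0504 in healthy intestine. Per CPM of Vil1, the villin of gut epithelium, Gzma stood at 0.0234, 0.0434 and 0.0341 in the tumours and 0.0276 in healthy intestine. The summed level of the 10 genes was 69.1%, 172% and 62.6% of the level of Ptprc, the pan-leukocyte gene, in the tumours and 40.7% in healthy intestine. These ratios are descriptions of single libraries and were not tested. Ptprc stood at 516 CPM in healthy intestine, against 147 to 244 CPM in the tumours. The summed B cell level was 192 CPM there, against 25.8 to 62.3 CPM in the tumours. For the lymph node genes the sums were 138 CPM and 7.94 to 14.2 CPM. The part of these cells in the ratios was not tested.

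Whether the step from healthy tissue to tumour differed between the intestine and the ovary was tested as a difference of log2 fold changes, tumours on the intestine over healthy intestine less orthotopic tumours over healthy ovary. None of the 10 genes passed with edgeR, and none had an unadjusted p under 0.05. The lowest was that of Gzma (difference 3.93 ± 2.09, adjusted p = 1.00). Both healthy tissues are single libraries, and the standard errors ran from 1.41 (Prf1) to 3.19 (Ncr1). How many of all genes passed was not computed, and the test does not show that the steps were equal.

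**Figure D3:**
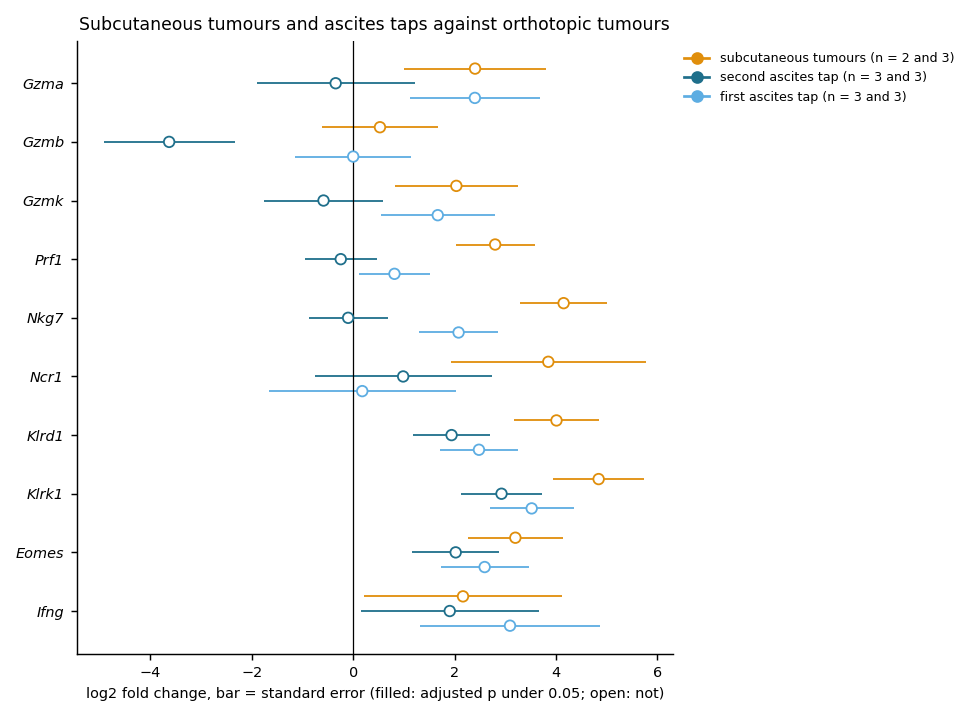
Log2 fold change (x axis) of each gene against orthotopic tumours in subcutaneous tumours (upper point), the second ascites tap (middle) and the first ascites tap (lower), with bars of 1 standard error. No point is filled, since none passed at an adjusted p under 0.05. The upper points lie between 0.53 and 4.84, and Gzmb in the second tap lies lowest, at -3.63.

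In subcutaneous tumours all 10 genes had a positive log2 fold change over orthotopic tumours, and none passed with edgeR. This comparison sets one primary site against another. The library names of both subcutaneous tumours start with SCT, and those of the orthotopic tumours with S or SM. Site and name series therefore cannot be told apart here. Of all genes 0.0132% passed. An unadjusted p under 0.05 was reached by 5 of the 10 genes and by 4690 of all 22671 genes tested. DESeq2 passed 5 of the 10, against 10.1% of all genes, namely Prf1, Nkg7, Klrd1, Klrk1 and Eomes. The median was 3.00, against 0.25 for all genes. For 7 of the 10 genes the groups did not overlap. The share of all genes without overlap was not computed, so that count says nothing particular of the 10.

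The receptor Klrk1 had 13.03 and 3.34 CPM in subcutaneous tumours 2 and 3, against 0.519, 0.133 and 0.184 CPM in orthotopic tumours. Its log2 fold change was 4.84 ± 0.90 (edgeR adjusted p = 0.0532), and both subcutaneous tumours stood above all 3 orthotopic ones. Klrd1 had 8.29 and 2.95 CPM, with a log2 fold change of 4.01 ± 0.84, and Nkg7 had 12.5 and 2.26 CPM, with 4.15 ± 0.86 (adjusted p = 0.0548 for each). Ncr1, at 0.868 and 0.785 CPM, was at its highest of all 17 libraries in tumour 2, and the healthy intestine library followed at 0.822 CPM. Its log2 fold change of 3.85 ± 1.92 was not past the threshold (adjusted p = 0.270). Prf1 had 7.16 and 1.96 CPM (2.80 ± 0.78, adjusted p = 0.0982), and Eomes had 4.25 and 3.09 CPM (3.20 ± 0.94, adjusted p = 0.108). The granzymes were low at this site. Gzma had 0.434 and 0.196 CPM, Gzmb 2.08 and 0.589 CPM, and Gzmk 1.303 and 0.196 CPM, and for Gzmb and Gzmk the groups overlapped. Ifng had no count in tumour 2 and 4 counts in tumour 3.

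Subcutaneous tumour 2 was the higher of the pair for 9 of the 10 genes. It also held more RNA of other lymphocytes, with a summed B cell level of 1418 CPM against 4.32 CPM in tumour 3 and a Ptprc level of 1464 against 80.2 CPM. Their part in the result was not tested. Relative to Ptprc, the summed level of the 10 genes was 3.41% in tumour 2 and 19.4% in tumour 3. Without tumour 3, 4 of the 10 genes passed, in a fit where 972 of all genes did, against 3 with both tumours. They were Klrk1 (log2 fold change 5.37, adjusted p = 0.00951), Nkg7 (4.77, 0.0103), Klrd1 (4.43, 0.0201) and Prf1 (3.31, 0.0444). Without tumour 2 none passed, and Klrk1 stood at 3.55.

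In the lists around the 10 genes, none of the NK receptor, T cell, B cell or killing genes passed under the skin. Tbx21, the partner of Eomes, had 4.39 and 4.07 CPM in subcutaneous tumours 2 and 3, against 0.156, 0.0665 and 0 CPM in orthotopic tumours (log2 fold change 5.75 ± 1.03, adjusted p = 0.0532). Cd96 had 11.9 and 3.09 CPM against 0.260, 0.0665 and 0.0526 CPM (5.82 ± 1.02, adjusted p = 0.0532). Klrb1c had 2.17 and 1.57 CPM against 0.182, 0.133 and 0.526 CPM (adjusted p = 0.119).

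In the first ascites tap all 10 genes also had a log2 fold change above 0 over orthotopic tumours, the smallest being that of Gzmb at 0.00, and none passed with edgeR. Of all genes 1.58% passed in either direction. An unadjusted p under 0.05 was reached by 4 of the 10 genes and by 4291 of all 22671 genes tested. DESeq2 passed 3 of the 10, against 11.4% of all genes, namely Klrd1, Klrk1 and Eomes. Klrk1 had 2.52, 6.27 and 1.03 CPM in first taps 1, 2 and 3, against 0.519, 0.133 and 0.184 CPM in orthotopic tumours (log2 fold change 3.52 ± 0.83, edgeR adjusted p = 0.0564). Without first tap 3 it passed, at 3.94 (adjusted p = 0.0290). Klrd1 had 1.78, 2.99 and 1.07 CPM against 0.467, 0.465 and 0.105 CPM (2.48 ± 0.76, adjusted p = 0.112). Eomes had 1.23, 2.27 and 3.75 CPM against 0.389, 0.133 and 0.658 CPM (2.59 ± 0.87, adjusted p = 0.138). The groups did not overlap for these 3 genes, nor for Nkg7, which had 1.095, 2.72 and 1.45 CPM, or for Ifng, which had 4 to 8 counts a library against 2 counts or none. How many of all genes did not overlap was not computed, so this says nothing particular of the 10. Prf1 had 1.095, 1.47 and 0.880 CPM (0.82 ± 0.70), and Gzmk had 0.493, 0.227 and 1.03 CPM (1.67 ± 1.12), and for both the groups overlapped. The other granzymes overlapped too, with Gzma at 0.164, 0 and 0.803 CPM and Gzmb at 0.164, 2.00 and 0.650 CPM. Ncr1 had 4 counts in first tap 2, 1 count in first tap 3 and none in the other (0.18 ± 1.85). The direction of Gzmb and of Ncr1 turned when single libraries were left out.

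In the second tap 5 of the 10 genes had a positive and 5 a negative log2 fold change over orthotopic tumours, and none passed with edgeR, where 1.09% of all genes did. An unadjusted p under 0.05 was reached by 4 of the 10 genes, Klrk1, Klrd1, Eomes and Gzmb. The same held for 3689 of all 22671 genes tested. DESeq2 passed 2 of the 10, against 8.91% of all genes: Klrk1 rose by 2.90 and Gzmb fell by 3.78 on the log2 scale. Klrk1 had 3.14, 2.03 and 1.32 CPM in second taps 1, 2 and 3, above all 3 orthotopic tumours (2.93 ± 0.81, edgeR adjusted p = 0.105). Gzmb had 0.0888, 0.114 and 0 CPM, below all 3 orthotopic tumours at 1.95, 0.133 and 0.684 CPM (-3.63 ± 1.29, adjusted p = 0.190). The second taps held 3, 4 and 0 counts of Gzmb, and Gzma had no count in second taps 1 and 2 and 4 counts in the other, so both stood near the floor. Klrd1 had 2.52, 0.715 and 0.771 CPM, also above all 3 orthotopic tumours (1.94 ± 0.75, adjusted p = 0.223). Eomes overlapped, with 2.37, 0.229 and 2.28 CPM (2.02 ± 0.86, adjusted p = 0.266). The groups overlapped as well for Gzma (-0.34 ± 1.56), Gzmk (-0.58 ± 1.17), Prf1 (-0.24 ± 0.71), Nkg7 (-0.10 ± 0.78), Ncr1 (0.99 ± 1.74) and Ifng (1.91 ± 1.76). Overlap over all genes was not computed here either.

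Klrk1 was also set against the T cell gene Cd8a. The ratio of Klrk1 to Cd8a was 2.59, 1.78 and 3.00 in the second taps and 0.594, 1.07 and 0.519 in the first taps. It was 2.96 in subcutaneous tumour 3, 1.29 in healthy ovary, 0.333 in orthotopic tumour 1 and 0.294 in subcutaneous tumour 2, so a high ratio was not particular to ascites. In tumours on the intestine it was 0.0125 to 0.0552. Macrophage genes were also high in these fluids. Their list rose over orthotopic tumours in 3 of 4 genes in the second tap and 4 of 4 in the first, with summed levels of 1082 to 1859 CPM and 600.0 to 3304 CPM against 133 to 193 CPM. Of the NK receptor and adaptor genes, Fcer1g, a signalling adaptor shared by NK and myeloid cells, rose in the second tap (2.69 ± 0.57, adjusted p = 0.0487). Cd244a, a receptor of NK cells that some myeloid cells also carry, rose in the first tap (3.98 ± 0.83, adjusted p = 0.0401). The part of macrophages in the levels of the 10 genes was not tested. T cell genes summed to 5.25 to 9.06 CPM in the second tap and 14.6 to 31.0 CPM in the first, against 5.42 to 13.8 CPM in orthotopic tumours. The cultured line stood at 8.13 CPM, so the sums of the second tap are not above those of a line without Ptprc counts by much, if at all.

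**Figure D4:**
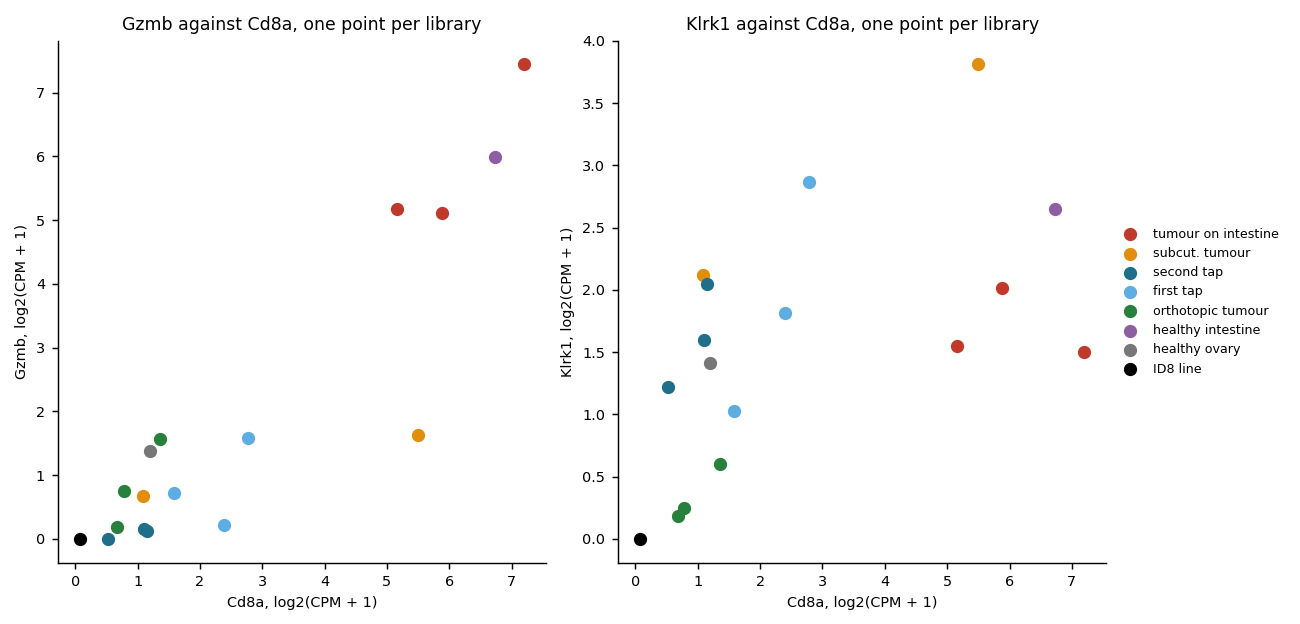
Gzmb (left) and Klrk1 (right) against Cd8a, each as log2(CPM + 1), with 1 point per library coloured by group. The 4 intestinal libraries are high for both Cd8a and Gzmb, while the second taps lie at low Cd8a with Klrk1 of 1.32 to 3.14 CPM, and subcutaneous tumour 2, at 44.3 CPM of Cd8a, has 2.08 CPM of Gzmb and 13.03 CPM of Klrk1.

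Between the taps, 9 of the 10 genes had a lower mean in the second tap than in the first, and none passed, as 0% of all genes did with edgeR. An unadjusted p under 0.05 was reached by 2 of the 10 genes and by 145 of all 22671 genes tested. DESeq2 passed none of the 10. Gzmb had 0.0888, 0.114 and 0 CPM in the second tap, against 0.164, 2.00 and 0.650 CPM in the first (log2 fold change -3.63 ± 1.3, adjusted p = 1.00). Nkg7 had 0.651, 0.343 and 0.147 CPM against 1.095, 2.72 and 1.45 CPM (-2.18 ± 0.78, adjusted p = 1.00). For both genes, and for Prf1, the taps did not overlap, but the share of all genes without overlap was not computed. Klrk1 and Klrd1 overlapped, with log2 fold changes of -0.60 ± 0.74 and -0.54 ± 0.71. Prf1 stood at -1.06 ± 0.71. Gzma (-2.75 ± 1.36), Gzmk (-2.25 ± 1.17), Eomes (-0.57 ± 0.82) and Ifng (-1.19 ± 1.60) overlapped as well. Ncr1, at 0.81 ± 1.77, had 11 counts in second tap 1, where 32775 genes had a count, and none in the other second taps. The median over the 10 genes was -1.12, against -0.04 for all genes, and it was -2.20 without second tap 1 and -0.76 without first tap 2.

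Orthotopic tumours stood below the lone healthy ovary library for 9 of the 10 genes, and none passed with edgeR, where 0.600% of all genes did. An unadjusted p under 0.05 was reached by 4 of the 10 genes and by 2541 of all 22671 genes tested. DESeq2 passed none of the 10 and 3.44% of all genes. Klrd1 had 0.467, 0.465 and 0.105 CPM in orthotopic tumours and 2.51 CPM in healthy ovary (log2 fold change -2.85 ± 0.93, adjusted p = 0.246). Klrk1 had 0.519, 0.133 and 0.184 CPM and 1.66 CPM (-2.55 ± 0.97), Nkg7 had 0.571, 0.399 and 0.263 CPM and 1.94 CPM (-2.22 ± 0.96), and Gzma had 2 counts a library and 0.944 CPM (-3.96 ± 1.44). For 8 of the 10 genes the ovary library lay outside the range of the tumours. The share of all genes for which it did so was not computed, so this count says nothing particular of the 10. Gzmk (-2.47 ± 1.39), Ncr1 (-3.12 ± 2.13), Eomes (-1.39 ± 1.1) and Ifng (-2.77 ± 2.13) were among these 8, while Gzmb overlapped (-0.77 ± 1.39). Prf1 was the exception in direction, at 0.54 ± 1.03. As with healthy intestine, a single library allows no replicate check.

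The cultured line held no count of 8 of the 10 genes, which by the floor of 3 counts allows up to 0.0795 CPM for each at its depth. Prf1 had 6 counts, or 0.159 CPM with an exact 95% interval of 0.0583 to 0.346 CPM that covers counting error only. Eomes had 52 counts, or 1.38 CPM with an interval of 1.03 to 1.81 CPM. This was above the level in all 3 orthotopic tumours, at 0.389, 0.133 and 0.658 CPM, and inside the range of the tumours on the intestine. Ptprc and Cd3e had no count in the line, while Trac, the constant gene of the T cell receptor alpha chain, had 256 counts and Klra4, an NK receptor gene of a family of near copies, had 285. Eomes overlaps an antisense gene and Gzmk overlaps Esm1 on the opposite strand, and whether the counting used strand is not given in the sources used here. Reads of such pairs cannot be told apart without it. Ifng overlaps Gm49751 on the same strand, where strand does not separate the reads.

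The genes whose levels were most like the mean level of the 10, by Pearson correlation of log2(CPM + 1) over 17 libraries, were Baiap3 and Cd7 (r = 0.98 for each), Cd6, Cd96 and Apol7e (0.98), and Perm1, Tcrg-C2 and Cd3e (0.97). Spearman's rho was 0.95 for Baiap3, 0.97 for Cd7 and 0.93 for Cd3e. The libraries share depth and cell mix, and 4 of them are intestinal, so these values are a description. Without tumour 2 on the intestine, where the 10 genes had their highest mean level, 7 of the 8 names were the same. Over the 13 libraries that are not intestinal only Cd7 remained, and the list was led by Zap70 (r = 0.96), Sidt1 and Ms4a4b (0.96 for each). Zap70 encodes a kinase of the T cell receptor.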

How the data were processed

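Per the labels' protocols, RNA came from Trizol extraction, and a modified NEBNext Ultra II directional kit gave total RNA libraries. The submitters' processing notes name HISAT, HISAT2, featureCounts and DESeq2 and the builds hg19 and mm39, with no versions given in the sources used here. The authors deposited raw counts per Ensembl gene as whole numbers, in 2 identical files, and 1 column that matched no sample in the labels was not used. Symbols were looked up by identifier, and 42462 identifiers matched. Trdc, Raet1a, Raet1b, Raet1c and H60a were not analysed here.

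Counts of 17 libraries in 8 groups were fitted in 1 quasi-likelihood model with edgeR 4.0.16 (R 4.3.3), with 1 coefficient per group, TMM scaling and 9 residual degrees of freedom. Testing kept the 22671 of 43629 genes that exceeded 0.5 CPM in 2 or more libraries. A gene passed at a Benjamini-Hochberg adjusted p under 0.05 over all genes tested. SE is the standard error of a log2 fold change, whose first named group is on top. In the 2 comparisons with a healthy tissue the lone library is assumed to vary like the rest. DESeq2 1.42.0, other scalings, no filter, a replicate block, the SM library names alone and left-out libraries were tried as alternatives. The fit was tested on simulated data. Intervals are exact (Clopper-Pearson or Poisson) at 95% and, like the floor of 3 counts a library, cover counting error only. Even counts were in excess, at 53.8% to 66.1% of counts between 1 and 199, and the cause was not tested.

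The 10 genes and all lists were chosen with earlier results of these data known. All 10 are named in every comparison, with up to 4 genes of each list past the threshold by smallest p, the most abundant of those not past it, and the 8 genes most like the mean of the 10. Tbx21, Cd96 and Klrb1c under the skin, and Trac and Klra4 in the line, were chosen after their values were seen. Gzmb has near paralogs in the mouse granzyme cluster, so its counts are uncertain where reads were shared.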

Additional observations from a re-analysis of the deposited data

How the results depend on the processing

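Of 794 values of single genes under the alternatives, 718 kept their direction and side of the threshold, 23 passed only under the alternative, 17 lost the call and 36 changed sign. With DESeq2 the counts among the 10 genes were 5 in subcutaneous tumours, 3 in the first tap and 2 in the second tap over orthotopic tumours. All genes called with DESeq2 were 2300, 2591 and 2021 in these comparisons, 5983 in tumours on the intestine over orthotopic tumours, 45 over healthy intestine, 1 between taps and 780 in orthotopic tumours over ovary. Without a filter on low counts 3 of the 10 passed in subcutaneous tumours and 1 in the first tap, and 140 of all genes in subcutaneous tumours. Scaled by library size alone, 6 of all genes passed in subcutaneous tumours, 83 in the first tap and 17 in the second, and with DESeq2 size factors 160 in the second. Without the subcutaneous group 1 of the 10 passed in the first tap, and of all genes 771 in the first tap, 515 in the second and 219 in orthotopic tumours over ovary. With SM library names alone 3 of the 10 and 664 of all genes passed in tumours on the intestine over orthotopic tumours, and no gene in either tap or over ovary. Summed levels scaled by library total alone were 162 CPM in intestine and 13.2 CPM in ovary. The list of nearest genes shared 1 name when intestinal libraries were left out, an alternative chosen after seeing the data. The cause of these shifts was not tested.

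Whether replicate numbers pair the samples could not be decided from groups of so few libraries. Deviations of 14 same-numbered pairs correlated at -0.56 to 0.44, and 6 pairs correlated best with their own number. Among these 6, the pairs of subcutaneous with orthotopic tumours gave the same value, 0.0438. With the replicate block, 1 of the 10 (Klrd1, 4.33, adjusted p = 0.0486) and 16 of all genes passed in subcutaneous tumours, 55 in the first tap and 18 in the second, with the call on no other of the 10 genes changed. Under the block Gzmb turned to -0.53 in the first tap and -0.077 under the skin, and Ncr1 to -1.06 between taps.

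Leaving out 1 library at a time, all genes called ranged from 0 to 972 in subcutaneous tumours, 18 to 925 in the first tap, 1 to 30 in the second, 1205 to 4081 in tumours on the intestine and 3 to 19 in orthotopic tumours over ovary. Among the 10 genes the counts ranged from 0 to 4, 0 to 1, 0 to 0 and 4 to 7 over orthotopic tumours in the same order. The median log2 fold change of the 10 genes lay between 3.60 and 5.94 in tumours on the intestine over orthotopic tumours and between -2.20 and -0.76 between taps. Signs turned in some of these fits, all at values that were not past the threshold. The ranges were -0.65 to 1.68 for Gzmb and -2.47 to 4.52 for Ifng under the skin, and -1.32 to 1.15 for Gzmb and -1.51 to 3.90 for Ncr1 in the first tap. In the second tap they were -3.90 to 0.26 for Gzma, -1.47 to 0.95 for Gzmk, -3.73 to 4.70 for Ncr1, -0.72 to 0.22 for Nkg7 and -0.60 to 0.11 for Prf1. Between taps they were -1.02 to 0.30 for Klrk1 and -3.91 to 2.41 for Ncr1. Against healthy intestine they were -1.01 to 0.43 for Gzma, -0.83 to 0.81 for Gzmb, -0.40 to 1.62 for Ifng, -0.57 to 0.074 for Klrd1 and -0.71 to 0.58 for Nkg7. With SM names alone Gzma stood at 0.12, Gzmk at 0.026, Nkg7 at 0.25 and Prf1 at 0.031 in the second tap and Gzma at 0.33 against healthy intestine, where DESeq2 gave Gzma 0.0124 and its size factors 0.0128. Gzmb in the first tap was -0.030 without the filter and -0.0023 without the subcutaneous group. Ncr1 and Ifng had 105 counts each over all libraries, which limits any statement on them.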
